A study of Homo sapiens with 7 samples.

Results

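Chromosome 19 carries the densest collection of zinc finger genes in the human genome, and Rb binding at their promoters is described here in ZR-75-1 cells, a line established from an oestrogen receptor-positive breast carcinoma. The genes were the protein-coding GENCODE 44 genes on chromosome 19 whose symbol begins with ZNF followed by a digit. This rule found 249 of the 19970 protein-coding genes on chromosomes 1 to 22 and X. Of these, 248 have at least 1 protein-coding transcript with a transcription start site (TSS), and the readthrough model ZNF625-ZNF20 has none and so could not be assigned a peak. The other 1227 protein-coding genes of chromosome 19 and the 266 protein-coding ZNF genes of other chromosomes served for comparison.

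Rb was profiled by CUT&RUN, in which an antibody directs a nuclease to a chromatin protein and the released DNA is sequenced. Parental cells received DMSO (2 libraries) or 500 nM palbociclib (2 libraries) for 4 days, and RB1 knockout (RB1 KO) cells received the same treatments with 1 library each. The RB1 KO line was derived from a single sorted cell after CRISPR editing, so it represents 1 clone. An IgG2a antibody that recognizes no target was used on parental cells with palbociclib (1 library). Replicates were independent cultures according to the study's methods. The files are peak lists, which hold no expression values, so the identity of the cells could not be checked against marker genes.

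Most zinc finger genes on chromosome 19 encode KRAB zinc finger proteins, which arose by repeated tandem duplication and lie in clusters. Their arrays of zinc fingers read DNA sequence, and the KRAB domain recruits TRIM28 and the methyltransferase SETDB1 to silence retroelements and other targets. Rb is best known for binding E2F transcription factors at promoters of cell cycle genes when it is hypophosphorylated. Palbociclib inhibits CDK4 and CDK6, the kinases that phosphorylate Rb early in the cell cycle, and the comparison of palbociclib with DMSO asks where Rb is found once these kinases are blocked.

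The promoters that the results turn on are shown first. Each line gives the 100 bases immediately upstream of the RefSeq start on the gene's own strand of GRCh38, 5′ to 3′. Capitals mark 4 motifs searched on both strands: CCAAT, the NFY motif, GGGCGG, the SP/KLF motif, CCGGAAGT, the ETS motif, and the E2F letters TTTCCCGC, TTTCGCGC, TTTGCCGC and TTTGGCGC. The first 3 genes had a peak in all 4 parental lists. They are ZNF837 (chr19:58381031-58381130, minus strand), ZNF324B (chr19:58451522-58451621, plus strand) and ZNF749 (chr19:57435225-57435324, plus strand).
ZNF837: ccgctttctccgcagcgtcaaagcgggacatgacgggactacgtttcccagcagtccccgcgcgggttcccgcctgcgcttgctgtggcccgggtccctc
ZNF324B: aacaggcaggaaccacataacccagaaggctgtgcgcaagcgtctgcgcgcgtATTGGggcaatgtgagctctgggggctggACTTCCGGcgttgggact
ZNF749: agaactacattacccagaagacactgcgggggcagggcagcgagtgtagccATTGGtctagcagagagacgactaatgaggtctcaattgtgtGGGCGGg

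The palbociclib peaks of both replicates covered all 100 bases at each of these 3 promoters. None of the 3 stretches holds the E2F letters, and that of ZNF837 holds none of the 4 motifs. A match or its absence describes these letters in this window only.

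The next stretches show promoters with a peak only in the palbociclib lists. ZNF77 (chr19:2944972-2945071, minus strand) holds 3 CCAAT boxes, and ZNF180 (chr19:44500523-44500622, minus strand) holds the ETS motif.
ZNF77: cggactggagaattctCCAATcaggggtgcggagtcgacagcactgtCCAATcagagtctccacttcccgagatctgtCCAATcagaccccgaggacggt
ZNF180: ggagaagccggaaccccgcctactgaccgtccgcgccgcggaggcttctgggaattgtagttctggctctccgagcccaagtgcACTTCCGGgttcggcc

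The last set compares promoters with E2F letters. ZNF653 (chr19:11505840-11505939, minus strand) and ZNF444 (chr19:56141187-56141286, plus strand) had a peak in both palbociclib lists. ZNF90 (chr19:20077900-20077999, plus strand), ZNF486 (chr19:20167114-20167213, plus strand), ZNF723 (chr19:22832191-22832290, plus strand) and ZNF730 (chr19:23116925-23117024, plus strand) lie in the large cluster near the centromere and did not. ZNF724 (chr19:23250395-23250494, minus strand), from the same cluster, had a peak in both lists and lacks the E2F letters in this stretch. At ZNF653 the palbociclib peaks of replicates 1 and 2 covered 100 and 72 of the printed bases, and at ZNF444 22 and 87. The summits at both genes lay outside the printed bases, downstream at ZNF653 and upstream at ZNF444. At ZNF653 both peaks covered the letters TTTGGCGC. At ZNF444 the replicate 1 peak ended before these letters and the replicate 2 peak covered them. ZNF444 also holds TTTGCCGC at position -142 from the RefSeq start, upstream of the printed bases. A peak that overlaps the letters does not by itself show that Rb was bound at them.
ZNF653: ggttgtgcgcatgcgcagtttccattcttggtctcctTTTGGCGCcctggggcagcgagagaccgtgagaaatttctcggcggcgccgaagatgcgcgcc
ZNF444: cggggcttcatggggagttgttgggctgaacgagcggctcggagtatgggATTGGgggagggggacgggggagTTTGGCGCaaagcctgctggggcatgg
ZNF90: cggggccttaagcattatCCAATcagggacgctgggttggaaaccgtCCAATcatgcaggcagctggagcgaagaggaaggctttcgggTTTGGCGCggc
ZNF486: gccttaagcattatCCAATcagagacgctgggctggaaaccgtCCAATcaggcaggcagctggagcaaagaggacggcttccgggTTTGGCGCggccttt
ZNF723: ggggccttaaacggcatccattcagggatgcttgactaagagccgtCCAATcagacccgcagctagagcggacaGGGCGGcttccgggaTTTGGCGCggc
ZNF730: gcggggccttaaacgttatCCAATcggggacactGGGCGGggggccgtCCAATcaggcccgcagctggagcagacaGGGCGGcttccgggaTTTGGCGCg
ZNF724: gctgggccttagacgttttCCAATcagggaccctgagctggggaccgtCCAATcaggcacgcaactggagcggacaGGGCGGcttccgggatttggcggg

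Few ZNF genes of chromosome 19 had an Rb promoter peak with DMSO, and many more had one with palbociclib. A peak was assigned to a gene when it shared at least 1 bp with the window between 2000 bp before and 500 bp after any of the protein-coding TSSs. With DMSO, 6 and 5 of the 249 genes had a promoter peak in replicates 1 and 2 (2.41% and 2.01%). With palbociclib, 74 and 72 had one (29.7% and 28.9%). The mean was 5.5 ± 0.707 genes with DMSO and 73 ± 1.41 with palbociclib (SD, n = 2 libraries each), a 13.3-fold difference, and the groups did not overlap (exact permutation test, two-sided, p = 0.333). This is the smallest p that 2 libraries against 2 allow. The palbociclib lists are longer, and with only the 816 peaks of highest −log10 q from each parental list, the length of the shortest, the difference was 2.5 genes in place of 67.5. Peaks were called in each library separately, and a gene without a listed peak may still have signal below the cutoff.

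These shares were below those of other genes in every parental library. Of all protein-coding genes, 5.01% and 4.13% had a promoter peak with DMSO, and the palbociclib lists had 38.3% and 37.7%. Among other chromosome 19 genes the shares were 5.87% in each DMSO list and 40.5% and 39.7% with palbociclib. ZNF genes of other chromosomes had 5.64% and 4.51% with DMSO and 50% and 44.4% with palbociclib, so the low share did not extend to genes named in the same way elsewhere.

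The gap to the rest of the chromosome was present with both treatments. The share of ZNF genes with a peak divided by that of other chromosome 19 genes was 0.411 and 0.342 with DMSO and 0.734 and 0.729 with palbociclib (exact permutation test, two-sided, p = 0.333). Other chromosome 19 genes with a peak numbered 72 and 72 with DMSO and 497 and 487 under palbociclib, a 6.83-fold difference. In percentage points the gap was -3.46 and -3.86 with DMSO and -10.8 in each palbociclib list.

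**Figure D1:**
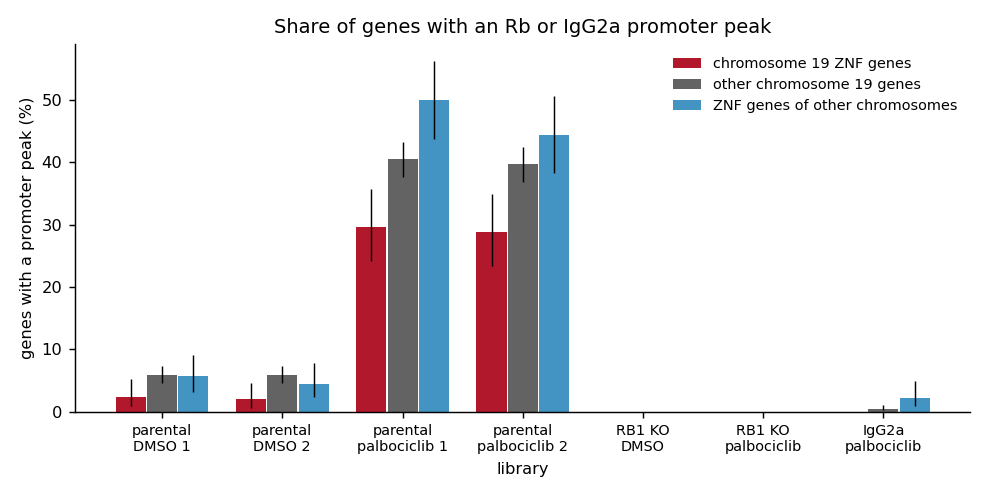
The percentage of genes with a promoter peak in each of the 7 libraries, for ZNF genes of chromosome 19, other protein-coding genes of chromosome 19 and ZNF genes of other chromosomes. Bars are single libraries and error bars are 95% exact binomial intervals over genes, drawn where at least 1 gene had a peak. In both palbociclib libraries the chromosome 19 ZNF genes, at 29.7% and 28.9%, stood below the other groups.

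No chromosome 19 ZNF gene had a promoter peak in the RB1 KO or IgG2a libraries. The RB1 KO lists with DMSO and with palbociclib and the IgG2a list each held 0 of the 249. Across all protein-coding genes the shares in these lists were 0.00501%, 0.00501% and 1.7%, with 0%, 0% and 0.489% of other chromosome 19 genes and 0%, 0% and 2.26% of ZNF genes elsewhere. The RB1 KO lists were short, with 65 and 51 peaks, whereas the parental libraries had 996 and 816 after DMSO and 8399 and 8256 after palbociclib, and the IgG2a list had 2648. The lists carry no read totals, and the smallest local background, which scales with depth, was 0.465 to 0.571 fragments in the 4 parental lists. It was 0.654 and 0.446 in the RB1 KO lists with DMSO and palbociclib and 0.451 in the IgG2a list. Each value is a minimum over listed peaks, so short and long lists are not directly comparable.

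The 60 ZNF genes with a promoter peak in both palbociclib lists made up 24.1% of the 249 (95% exact binomial interval 18.9 to 29.9%). The background was 33.7% of all protein-coding genes, 36.6% of other chromosome 19 genes and 41.7% of ZNF genes elsewhere. A further 26 were listed with palbociclib in 1 replicate only, 14 in replicate 1 and 12 in replicate 2. The remaining 163 had no promoter peak in any parental list. Genes are not replicates, and intervals over genes cover counting error only.

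Of the 60, 53 were gained, meaning listed in both palbociclib libraries and in neither DMSO library. This is 21.3% of the ZNF genes, beside 27.4% of all protein-coding genes, 28.3% of other chromosome 19 genes and 35.3% of ZNF genes elsewhere. Another 3 were listed in 1 DMSO library as well: ZNF653 and ZNF808 in replicate 1 and ZNF526 in replicate 2. None was listed with DMSO and absent from the palbociclib lists.

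ZNF524, ZNF837, ZNF324B and ZNF749 were listed in both DMSO and both palbociclib libraries. They are 1.61% of the ZNF genes, and the share with a peak in both DMSO lists, all of whose genes were also in both palbociclib lists, was 2.78% for all protein-coding genes, 3.42% for other chromosome 19 genes and 3.76% for ZNF genes elsewhere. The same 4 had the highest mean fold enrichment with palbociclib among the 60. Fold enrichment is the authors' ratio at the summit of the number of stacked fragments to the local background, with 1 added to each.

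ZNF524 (ENSG00000171443.7) encodes a C2H2 zinc finger protein, and the gene lies at chr19:55600022-55603138. Its fold enrichment was 11.1 and 7.22 in the DMSO libraries and 47.0 and 46.5 in the palbociclib libraries. Both palbociclib values exceeded both DMSO values, and the ratio of the means was 5.10. In palbociclib replicate 1 the peak spanned chr19:55598983-55600742, which includes the start of the gene. This peak also overlapped the promoter of FIZ1, which encodes another zinc finger protein, and at a mean of 1692.5 bp it was the widest among the 60.

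ZNF837 (ENSG00000152475.7) lies at chr19:58367618-58381030. Its fold enrichment was 11.7 and 10.6 with DMSO and 44.3 and 47.4 with palbociclib, and the fragment pileups recovered from the listed values were 26 and 21 against 99 and 106. The pileups of the groups did not overlap, and 106 was the highest at any chromosome 19 ZNF promoter. The ratio of mean fold enrichment was 4.12. The palbociclib peak of replicate 1 spanned chr19:58380490-58381326 and lay at no other protein-coding promoter.

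ZNF324B (ENSG00000249471.8) lies at chr19:58451611-58457833. Fold enrichment was 6.62 and 4.91 with DMSO and 31 and 38.2 with palbociclib. Its ratio of means, 6, was the largest among the 4 genes. ZNF749 (ENSG00000186230.7) lies at chr19:57435325-57447101. It had 8.99 and 5.75 with DMSO and 30.5 and 29.9 with palbociclib. At each of the 4 genes the DMSO and palbociclib values did not overlap. The same comparison was not made over the 556 protein-coding genes in all 4 parental lists, so it does not set these genes apart. The peaks at ZNF324B and ZNF749 lay at no other protein-coding promoter. Since fold enrichment is relative to each list's own background, these ratios compare listed values and not amounts of Rb.

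**Figure D2:**
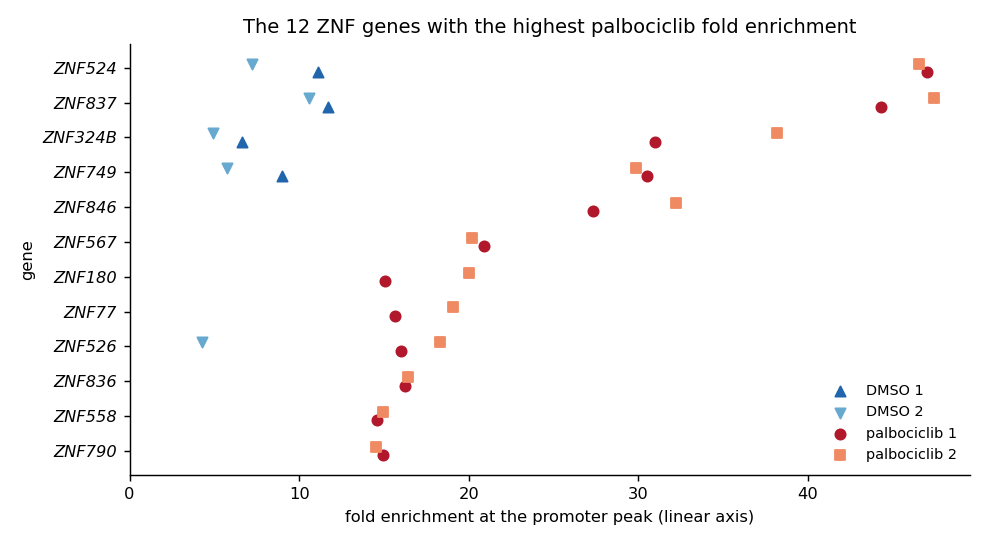
Fold enrichment at the promoter peak (linear axis) of the 12 ZNF genes with the highest mean over both palbociclib libraries, with 1 point per library. The top 4 genes carry DMSO points at 4.91 to 11.7, to the left of their palbociclib points at 29.9 to 47.4, and ZNF526 carries a single DMSO point at 4.30.

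Below these 4 genes, the strongest promoters were listed almost entirely with palbociclib. ZNF846 had fold enrichment of 27.3 and 32.2 in the palbociclib libraries and ZNF567 had 20.9 and 20.2, neither with a DMSO peak. ZNF180 had 15.1 and 20, and ZNF77 had 15.7 and 19.1. ZNF526 had 4.30 in DMSO replicate 2 and 16.0 and 18.3 with palbociclib, at a peak that also overlapped the promoter of DEDD2, a gene for a death effector domain protein.

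The remaining 3 of these 12 shared their peak with another gene. ZNF836 (16.2 and 16.4) shared its peak with PPP2R1A, which encodes the scaffold subunit of protein phosphatase 2A. ZNF558 (14.6 and 14.9) shared its peak with MBD3L1, whose TSS was the nearest to the summit. ZNF790 and ZNF345 lie head to head and shared 1 peak (14.9 and 14.5), so that ZNF345 had the same rank as ZNF790.

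At ZNF846 the peak was not at the main start. Its summits lay at -23654 and -23681 bp from the canonical TSS, where a negative distance is upstream, and 705 and 678 bp downstream of an alternative TSS. In all, 6 of the 60 genes had both summits more than 2500 bp from the canonical TSS: ZNF846, ZNF627, ZNF254, ZNF790, ZNF875 and ZNF331. With the canonical TSS alone, 55 of the 249 genes had a promoter peak in both palbociclib lists.

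The 4 lowest means among the 60 were those of ZNF557, ZNF296, ZNF613 and ZNF766. ZNF557 had fold enrichment of 5.69 and 2.90 and ZNF296 had 3.74 and 4.86. ZNF613 had 4.62 and 4.52, and ZNF766 had 4.42 and 5.39. At ZNF557 the nearest TSS was that of MBD3L3. ZNF100 had the narrowest peaks by the mean of both libraries, 188.5 bp (156 and 221 bp), with fold enrichment of 4.24 and 6.69.

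The mean palbociclib fold enrichment of the 60 ran from 4.30 to 46.8 with a median of 8.19, and the 449 other chromosome 19 genes in both lists had a median of 9.40 and a maximum of 69.2. A mean of at least 10 was reached by 22 of the 60 (36.7%) and by 216 of the 449 (48.1%), and a mean under 5 was found for 5 (8.33%) and 34 (7.57%). The 26 ZNF genes listed in 1 palbociclib replicate had lower values, from 3.40 at ZNF414 to 7.11 at ZNF430, with a median of 4.60.

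Replicates gave similar values at most of the 60. The larger palbociclib fold enrichment divided by the smaller had a median of 1.18 and exceeded 1.5 at 10 genes. The largest ratio was 3.35, at ZNF331, whose values were 13.3 and 3.96. Summits of the 2 replicates were a median of 53.5 bp apart and within 50 bp of each other at 28 genes, with the widest gap, 423 bp, at ZNF473.

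Median fold enrichment at listed ZNF promoters overlapped between the treatments. It was 7.81 and 5.75 in the DMSO libraries and 7.18 and 6.79 in the palbociclib libraries, a difference of 0.208 that was smaller than the spread of the DMSO libraries (exact permutation test, two-sided, p = 1). These medians cover different genes, since only 6 and 5 genes entered with DMSO. With the 816 peaks of highest −log10 q from each list the difference was 23 (exact permutation test, two-sided, p = 0.333). That cut keeps only the strongest peaks of the palbociclib lists (8399 and 8256 peaks) but most or all of the DMSO lists (996 and 816). A higher palbociclib median is favoured by the cut itself, so no conclusion is drawn from it. At other chromosome 19 genes the DMSO medians were 7 and 6.11 and the palbociclib medians 8.89 and 8.88, above the ZNF genes in both palbociclib lists.

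Listed peaks at ZNF promoters were wider in both palbociclib libraries than in both DMSO libraries. The median width was 240 and 224 bp with DMSO and 447 and 428 bp with palbociclib, a difference of 205 bp with no overlap between groups (exact permutation test, two-sided, p = 0.333, the smallest possible). Other chromosome 19 genes had 320 and 215 bp with DMSO and 499 and 513 bp with palbociclib. At the 60 genes in both palbociclib lists the medians were 476 and 508 bp, beside 539 and 538 bp at the other 449. With lists of equal length the difference in median width was 562 bp in place of 205 bp, but that cut keeps only the strongest palbociclib peaks.

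Summits lay close to the TSS of the ZNF genes. The median distance to the nearest coding TSS was 112 and 33 bp with DMSO and 102 and 84 bp with palbociclib (exact permutation test, two-sided, p = 1). Among the palbociclib peaks at ZNF genes, 66 of 74 (89.2%) and 66 of 72 (91.7%) had the summit within 250 bp, beside 70.8% and 70.6% at other chromosome 19 genes. The summit was downstream of the TSS at 56.8% and 50% of the ZNF genes and at 35.8% and 33.1% of the others.

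Most peaks at ZNF promoters lay at a single protein-coding gene. Of the 60 genes, 12 (20%) had a peak that overlapped the promoter of another protein-coding gene, beside 159 of 449 (35.4%) other chromosome 19 genes. At 7 of the 12 the other gene had a symbol of its own outside the ZNF genes, and at 5 it was a gene model without a symbol or another ZNF gene. At 53 of the 60 the TSS nearest to the summit belonged to the ZNF gene itself. These shares are descriptions over genes and were not tested.

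Along the chromosome, 235 of the 249 genes fell into 10 clusters, defined from the annotation as runs of at least 5 ZNF genes with neighbouring starts within 500 kb. They are numbered 1 to 10 from the short-arm end. The share with a peak in both palbociclib lists ranged from 0 to 60%, and the intervals of all 10 clusters overlapped. Of the short-arm genes 14 of 85 (16.5%) had such a peak and of the long-arm genes 46 of 164 (28%), beside 38.5% and 35% of other genes on the same arms.

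Cluster 1 runs from ZNF554 to ZNF77 at 2.82 to 2.94 Mb and had a peak at 3 of its 5 genes (95% exact binomial interval 14.7 to 94.7%). ZNF57 had fold enrichment of 11.8 and 12.9 and ZNF555 had 7.73 and 7.28 with palbociclib, and the first gene, ZNF554, was in no list. Cluster 2 runs from ZNF414 to ZNF846 at 8.51 to 9.77 Mb and had a peak at 3 of 14 genes (21.4%), ZNF558, ZNF699 and ZNF846. Cluster 3 runs from ZNF653 to ZNF791 at 11.5 to 12.6 Mb and had a peak at 3 of 26 genes (11.5%), ZNF653, ZNF627 and ZNF44. Of these, ZNF653 was the strongest at 10.9 and 13.2 and was also listed in DMSO replicate 1 at 4.93.

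Cluster 4, next to the centromere on the short arm, runs from ZNF101 to ZNF254 at 19.7 to 24.1 Mb and had a peak at 4 of 37 genes (10.8%, 95% interval 3.03 to 25.4%). These were ZNF254 (12.9 and 10.4), ZNF429 (5.59 and 5.39), ZNF100 (4.24 and 6.69) and ZNF724 (5.30 and 4.54). The ZNF254 summits lay far upstream of the canonical TSS, at -53608 and -53710 bp, near an alternative start. No gene of cluster 4 was listed with DMSO. Its members listed in 1 palbociclib replicate were ZNF253, ZNF486, ZNF66, ZNF430, ZNF738 and ZNF43, with fold enrichment from 3.51 to 7.11.

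Cluster 5 runs from ZNF302 to ZNF792 at 34.7 to 35 Mb, and none of its 5 genes was in a parental list, an interval that reaches 52.2%. Cluster 6 runs from ZNF565 to ZNF573 at 36.2 to 37.8 Mb and had a peak at 6 of 26 genes (23.1%), led by ZNF567 and the ZNF790 and ZNF345 pair. Cluster 7 runs from ZNF575 to ZNF180 at 43.5 to 44.5 Mb and had a peak at 4 of 23 genes (17.4%), with ZNF428 at 10.9 and 13.3, ZNF575 at 11.2 and 10.1 and ZNF45 at 7.42 and 8.91 beside ZNF180. Both end genes of cluster 7 were listed, whereas those of clusters 5 and 6 were not.

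Cluster 8 runs from ZNF175 to ZNF331 at 51.6 to 53.5 Mb and had a peak at 10 of 40 genes (25%). ZNF836 was the strongest, and a run of neighbours was listed at similar levels, with ZNF845 at 5.08 and 5.88, ZNF525 at 5.18 and 6.72, ZNF765 at 7.89 and 8.22 and ZNF761 at 9.61 and 7.28. ZNF808 had 9.01 and 9.78 with palbociclib and 4.73 in DMSO replicate 1.

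The clusters next to the long-arm end had 22 of the 60 genes and all 4 that were also listed in both DMSO libraries. Cluster 9 runs from ZNF628 to ZNF835 at 55.5 to 56.7 Mb and had a peak at 7 of 16 genes (43.8%, 95% interval 19.8 to 70.1%). Besides ZNF524 these included ZNF865 (11.6 and 13.9), ZNF784 (14.2 and 10.4), ZNF444 (10.9 and 9.75) and ZNF787 (8.63 and 11.8). Cluster 10 runs from ZNF264 to ZNF446 at 57.2 to 58.5 Mb and had a peak at 15 of 43 genes (34.9%, 95% interval 21.0 to 50.9%). It holds ZNF837, ZNF324B and ZNF749, and also ZNF324 (9.44 and 7.78), ZNF584 (9.06 and 10.4) and ZNF274 (6.91 and 3.92), which encodes a KRAB zinc finger protein that binds ZNF genes themselves.

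**Figure D3:**
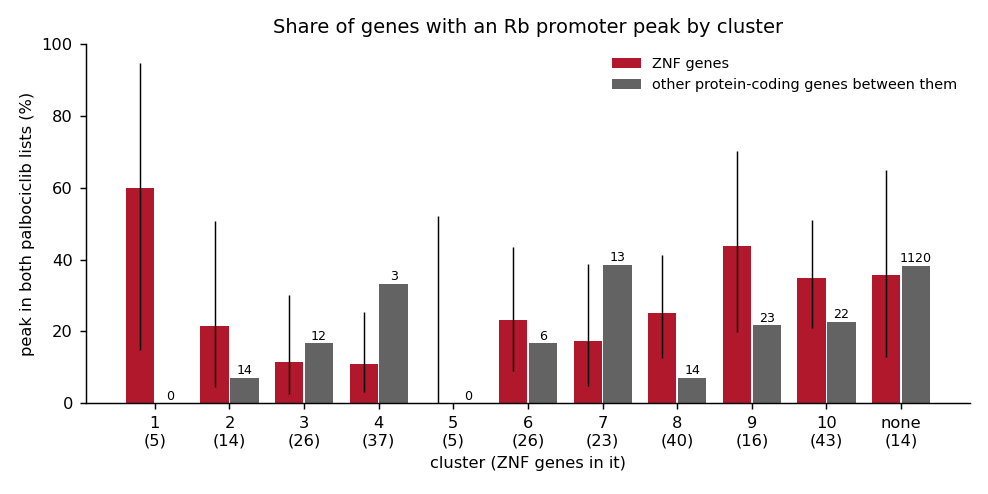
The percentage of genes with a promoter peak in both palbociclib libraries in each cluster of ZNF genes, numbered along the chromosome with the number of ZNF genes in brackets, and for genes outside clusters. Grey bars are other protein-coding genes inside the same cluster, with their number above the bar and no interval drawn, and error bars on the ZNF genes are 95% exact binomial intervals over genes. Cluster 4 is low at 10.8% and clusters 9 and 10 are at 43.8% and 34.9%, with wide intervals.

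**Figure D4:**
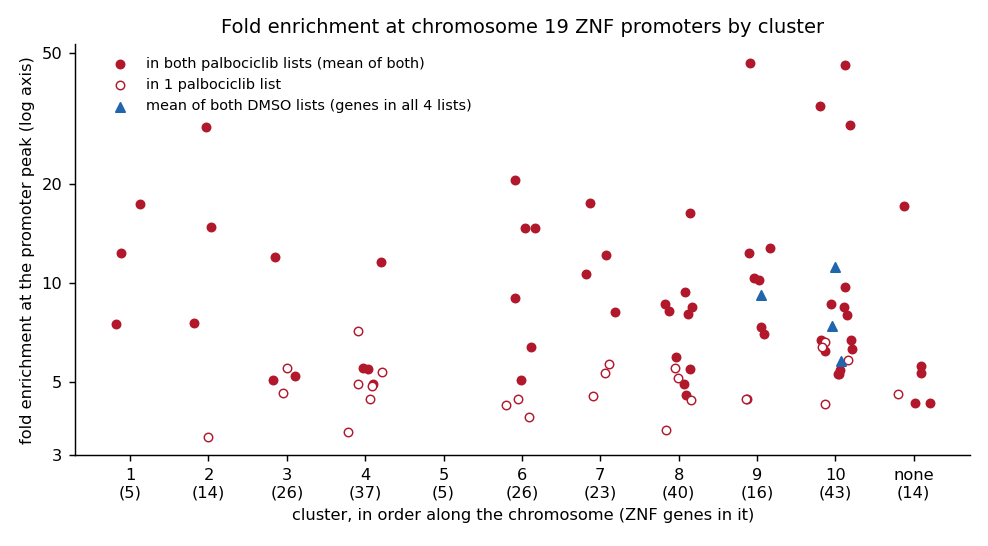
Fold enrichment at the promoter peak of each listed ZNF gene (log axis) by cluster, with the number of ZNF genes in brackets and "none" for genes outside clusters. Filled circles are means over both palbociclib libraries for the 60 genes in both, open circles are values of the 26 genes in 1 palbociclib library, and triangles are means over both DMSO libraries for the 4 genes in all parental lists. The 2 highest circles, at 46.8 and 45.9, are in clusters 9 and 10, where all 4 triangles lie.

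Within the clusters the ZNF genes and their neighbours had similar shares. Of the 235 clustered ZNF genes, 55 (23.4%, 95% interval 18.1 to 29.3%) had a peak in both palbociclib lists, and so did 21 of the 107 other protein-coding genes between them (19.6%, 12.6 to 28.4%). Outside the clusters the shares were 5 of 14 ZNF genes (35.7%) and 428 of 1120 other genes (38.2%). The lower share of the ZNF genes across the chromosome was thus not present in the comparison inside clusters, where the difference was 3.78 percentage points in the other direction.

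The genes between the ZNF genes were not alike. They include 8 olfactory receptor genes, of which 0 had a peak, 12 further genes with zinc finger symbols of another form, of which 3 had one, and 87 others, of which 18 had one (20.7%). Among genes with at least 10 CpG dinucleotides in the RefSeq promoter, 52 of 193 clustered ZNF genes (26.9%) and 14 of 34 neighbours (41.2%) had a peak, and so did 349 of 665 other genes outside clusters (52.5%). This restriction was chosen after the values were seen.

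Promoter sequence was compared over the 300 bases from 250 before to 50 after the RefSeq start. The RefSeq table matched 218 of the 249 ZNF genes and 57 of the 60, and the palbociclib peaks of both libraries overlapped that window at 50 of the 57. At the 7 others, ZNF846, ZNF627, ZNF254, ZNF567, ZNF875, ZNF574 and ZNF17, the peak of at least 1 palbociclib library lay outside that window. ZNF524 had no entry.

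The share with a peak in both palbociclib lists was higher at ZNF promoters with more CpG. It was 14.3% with under 10 CpG (2 of 14), 20.9% with 10 to 19 (18 of 86), 27% with 20 to 29 (24 of 89) and 44.8% with 30 or more (13 of 29). Other chromosome 19 genes had 8%, 32.1%, 56.2% and 61.8% in the same classes, and ZNF genes elsewhere had 25%, 34%, 44.2% and 54.5%. From 10 CpG upward the chromosome 19 ZNF genes were therefore the lowest of the 3 groups in each class, with median CpG numbers of 20 for the ZNF genes and 21 for other chromosome 19 genes.

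**Figure D5:**
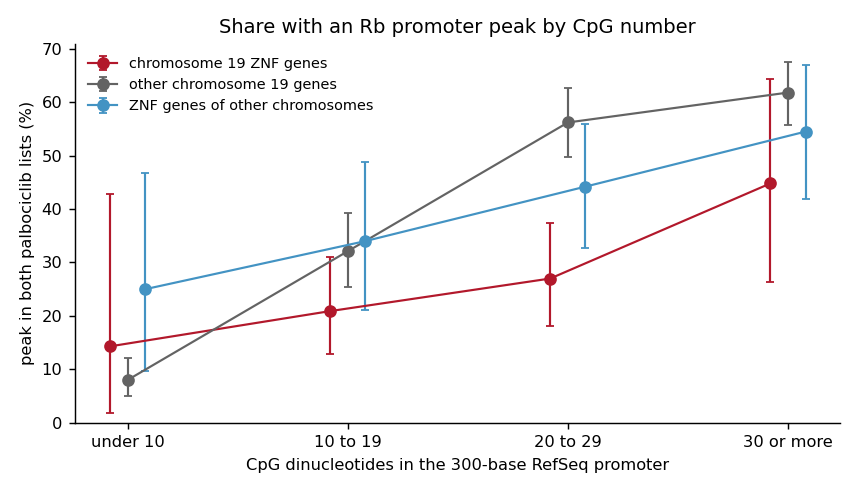
The percentage of genes with a promoter peak in both palbociclib libraries by the number of CpG dinucleotides in the 300-base RefSeq promoter, for ZNF genes of chromosome 19, other genes of chromosome 19 and ZNF genes of other chromosomes. Error bars are 95% exact binomial intervals over genes. Chromosome 19 ZNF genes go from 14.3% to 44.8% and lie below other chromosome 19 genes in the 3 upper classes.

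The number of start sites and sequence duplication were compared in the same way. ZNF genes with 1 coding TSS had a peak in both palbociclib lists in 25% of cases and those with 7 or more in 22.9%, whereas other chromosome 19 genes went from 20.5% to 61.7%. A gene with more starts has more windows in which a peak can be counted. More than 20% of 50-base words within 500 bp of the canonical TSS recurred on chromosome 19 at 5 ZNF genes (2.01%) and at 47 other genes (3.83%). Of these, 0 ZNF genes and 1 other gene (2.13%) had a peak in both palbociclib lists, and ZNF28 was listed in replicate 2 only. With 1% to under 20% of recurring words, the share was 16.7% of 48 ZNF genes and 18.8% of 197 other genes. Under 1% it was 26.5% of 196 ZNF genes and 41.8% of 983 other genes. Whether reads at promoters with recurring words were placed less well was not tested.

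ZNF promoters and others had different shares of motifs, which were not tested. The ETS motif stood in 45 of the 218 (20.6%), beside 4.53% of other chromosome 19 promoters and 6.32% of all promoters of this length. CCAAT stood in 118 (54.1%), beside 37.5% and 36.6%, and the E2F letters in 18 (8.26%), beside 5.27% and 4.50%. The GGGCGG motif stood in 148 (67.9%).

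For the E2F, ETS and CCAAT motifs, holding the motif did not go with a higher share of peaks at ZNF genes, as it did elsewhere on the chromosome. Of the 18 ZNF genes with E2F letters, 3 (16.7%) had a peak in both palbociclib lists, ZNF653, ZNF260 and ZNF444, beside 27% of the 200 without. Among other chromosome 19 genes the shares were 52% of 50 with the letters and 39.7% of those without. For the ETS motif the shares were 24.4% with and 26.6% without at ZNF genes, and 60.5% and 39.4% at the others. For CCAAT they were 24.6% with and 28% without at ZNF genes, and 48% and 35.8% at the others. For GGGCGG they were 27% with and 24.3% without at ZNF genes, and 49.6% and 22% at the others. Of the other motifs searched, 3 had higher shares with the motif than without at ZNF genes. These were NRF1 (40% and 25.8%), YY1 (28.6% and 26%) and CHR (27.3% and 26%). The CRE (0% and 27%) and E-box (22.2% and 26.3%) motifs had lower shares. The counts at ZNF genes are small, and no difference was tested.

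CCAAT was most frequent in clusters 1, 3 and 4. It stood in all 5 promoters of cluster 1, in 23 of 25 (92%) of cluster 3 and in all 29 of cluster 4. In cluster 4, 18 of the 29 (62.1%) held a pair of CCAAT boxes 28 or 29 bp apart, as in the ZNF90, ZNF486, ZNF730 and ZNF724 stretches above. That spacing was found at no ZNF promoter of the other clusters, at 3 other chromosome 19 promoters (0.316%) and at 0.405% of all promoters. The E2F letters stood in 6 of the 29 (20.7%): ZNF101, ZNF90, ZNF486, ZNF708, ZNF723 and ZNF730.

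None of these 6 had a peak in both palbociclib lists. ZNF486 was listed in palbociclib replicate 2 only, with fold enrichment of 4.43, and the other 5 were in no list. In ZNF90, ZNF486, ZNF723 and ZNF730 the letters TTTGGCGC begin 9 to 15 bases before the RefSeq start, at 11, 15, 11 and 9 bases. The median CpG number in cluster 4 was 10, the lowest of the 10 clusters. Cluster 10 differed in another way, with the ETS motif in 23 of 40 promoters (57.5%), as in the ZNF324B stretch.

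Motifs were also counted around the summits, in windows shorter than the promoter windows, so the shares of the 2 kinds of window are not compared. Within 100 bp on either side of the palbociclib summits of the 60 genes, at 59 distinct peaks in each list, the ETS motif stood in 10.2% and 11.9%, beside 3.76% and 3.55% at other chromosome 19 genes in both lists. CCAAT stood in 23.7% and 37.3% beside 33.3% and 38%. The GGGCGG motif stood in 55.9% and 50.8% beside 70.2% and 67.8%, and the E2F letters in 3.39% and 5.08% beside 6.99% and 7.65%.

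The bodies of the ZNF genes held almost no Rb peaks outside promoters. Over 7.55 Mb of gene body there were 0 non-promoter peaks in either DMSO list and 2 and 0 in the palbociclib lists, or 0.265 and 0 per Mb. The bodies of other chromosome 19 genes, 26.9 Mb in all, held 77 and 82 with palbociclib, or 2.87 and 3.05 per Mb. In the IgG2a list the densities were 0.662 per Mb for ZNF genes (5 peaks) and 0.596 per Mb for the others (16 peaks), so the palbociclib density at ZNF gene bodies was below that of the IgG2a list.

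The genes for the machinery that KRAB zinc finger proteins work through were treated as a separate list of 38 genes. Of these, 26 (68.4%) had a promoter peak in both palbociclib lists, beside 33.7% of all protein-coding genes, and 19 were gained. Their median mean fold enrichment was 8.42, beside 8.35 over all genes in both lists. TRIM28, the corepressor that KRAB domains bind, SETDB1, which methylates histone H3, and ATRX, a chromatin remodeller, had no peak in any parental list.

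MORC2, an ATPase of the HUSH silencing pathway, was gained with fold enrichment of 9.19 and 5.84. CBX5, which encodes the heterochromatin protein HP1 alpha, was listed in all 4 parental libraries, at 5.10 and 6.95 with DMSO and 36.4 and 26.9 with palbociclib. DNMT1, the maintenance DNA methyltransferase, had 15.9 and 9.34 with DMSO and 37.2 and 33.4 with palbociclib, and GATAD2A, a subunit of the NuRD complex, had 6.29 and 11.2 and then 40.8 and 41.6. SUMO2, a ubiquitin-like modifier, had 6.45 and 6.81 and then 20.5 and 13.4, and NSD2, a histone methyltransferase, had 5.68 and 5.58 and then 15.7 and 20.7. At each of these 5 genes the palbociclib values lay above the DMSO values, a comparison not made over all genes in both DMSO lists.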

How the data were processed

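The 7 libraries were grouped by genotype, antibody and treatment from their titles. The authors' methods state that BBDuk trimmed the reads, Bowtie2 2.3.4.1 placed them on hg38, reads in blacklisted regions and mitochondrial DNA were discarded while duplicates stayed, and MACS2 2.2.7.1 called peaks for every library from read pairs against IgG, at a q-value cutoff of 0.05. The control behind the IgG2a list is not given in the sources used here. The deposited lists give the authors' fold enrichment (a ratio), −log10 p and −log10 q, and an integer score, which was not used. The deposited −log10 p and fold enrichment together gave each summit's fragment pileup, with a largest misfit of 0.00551.

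GENCODE 44 gave genes and TSSs, and each gene took its promoter peak with the highest fold enrichment. Shares carry 95% Clopper-Pearson intervals, which cover counting error only. Duplicate reads are not independent molecules. Parental groups were compared by an exact permutation test, two-sided. The ZNF genes, the 38-gene list and the motifs were chosen with earlier results of these data known. Genes were named if they were in both DMSO lists, among the 12 highest or 4 lowest by mean palbociclib fold enrichment, at an end of a cluster, or the widest or narrowest peak, and so were TRIM28, SETDB1, CBX5, ATRX, MORC2 and listed corepressor genes with a peak in both DMSO lists. Further genes were named to account for counts after their values were seen. Other windows, starts, cutoffs, list lengths and left-out libraries were tried. Motif searches also covered the NRF1, CRE, YY1, E-box and CHR motifs, which are described only by their shares of peaks at ZNF genes. Zinc finger and KRAB domain counts were not analysed here. The pileup and test code was tested on simulated data. Python 3.11.15, pandas 2.3.3, NumPy 2.4.6, SciPy 1.17.1 and matplotlib 3.10.9 were used.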

Additional observations from a re-analysis of the deposited data

How the results depend on the processing

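With only the 816 highest-ranked peaks of each parental list, the length of the shortest, the rise with palbociclib was 2.5 genes in place of 67.5, 6 genes were in both palbociclib lists in place of 60, 2 were gained in place of 53, and the difference to other chromosome 19 genes was -3.54 percentage points in place of -12.5. List length itself differed with treatment, so this cut cannot tell treatment and list length apart. That difference was -11.1 with a window of 500 bp each side, -14.8 with the TSSs of all transcripts, -12 with the canonical TSS, -12.5 with the summit inside the window, -13.2 with −log10 q of at least 5, -11.8 with fold enrichment of at least 5, -12 with a wider symbol rule, -1.52 inside clusters with a gap of 250 kb, 3.78 inside clusters with a gap of 500 kb, and -25 for promoters with at least 10 CpG, an alternative added after seeing the data. Genes in all 4 parental lists numbered 2 with −log10 q of at least 5, in place of 4. The difference in median fold enrichment, 0.208, reversed to -0.156 with −log10 q of at least 5 and to -0.351 with fold enrichment of at least 5, and was 23 with equal list lengths. The difference in median summit distance, 20.2 bp, reversed to -22.8 with the canonical TSS, -9.25 with fold enrichment of at least 5 and -33.8 with equal list lengths. The median width difference kept its direction in all 13 alternatives run and was 562 bp with equal list lengths, in place of 205. Equal list lengths keep only the strongest palbociclib peaks, so the values 23 and 562 bp cannot show a difference between treatments.

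Leaving out 1 parental library at a time gave 66.5 to 68.5 for the rise in genes and -0.822 to 1.24 for median fold enrichment. Width gave 195 to 215 bp and summit distance -19.5 to 60 bp. Without DMSO replicate 1 or 2, 60 genes were in both palbociclib lists, 55 or 54 were gained and 5 or 6 were in all remaining lists. Without palbociclib replicate 1 or 2, a single palbociclib list remained. It held 72 or 74 genes, of which 65 or 67 were in neither DMSO list and 4 were in both. The difference to other chromosome 19 genes was -12.5 percentage points without a DMSO library and -10.8 on a single palbociclib list. Without DMSO replicate 2 the fold enrichment and distance differences reversed, to -0.822 and -19.5. With the replicate number as a block the rise was 67.5 genes (exact permutation test, p = 0.5, the smallest possible) and width 205 bp, fold enrichment 0.208 and distance 20.2 bp. Deviations of same-numbered libraries correlated at 0.059 over 441 genes in all 4 parental lists, with only 1 gene taken per peak. This covers gene-by-gene deviations only and cannot show a shared batch that shifts a whole list.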

Other observations

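Several limits apply to the values above. With 2 libraries in each parental group no exact test can pass 0.05, and RB1 KO and IgG2a rest on 1 library each. The lists hold called peaks only, so weak signal at the 163 ZNF genes without a parental peak is not seen, and at the 60 listed genes the pileup was as low as 6 fragments. Fold enrichment ranks peaks within a list and does not measure Rb per cell. Promoters of neighbouring ZNF genes are related by descent and are not independent of each other.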
